A study of Camelina sativa with 12 samples.

Results

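The comparison described here is that of salt-treated with control shoots of Camelina sativa (camelina), an oilseed of the Brassicaceae, over 6 of the 12 libraries of the series and 48096 of its 49932 genes. The genes were those at 1 CPM or more in at least 3 of the 6 shoot libraries, a rule that does not use the difference between the groups, and 1293 of the genes left out were at 0 in all 6. The salt-treated shoots came from plants watered with NaCl at 192 mM (15 dSm-1) for a nominal 21 days. The study's accounts of when salt was first given conflict, so that the length of the treatment is uncertain. The control shoots came from plants given tap water without salt. All plants were of the double haploid line DH55 and were 28 days old, before bolting, when the whole shoot was taken, and each group has 3 biological replicates. Roots of the same 2 treatments, 6 further libraries, are used only where the salt effect is compared between tissues.

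A plant in salty water faces an osmotic pull on its water and, later, a load of sodium and chloride in its leaves. Leaves are known to answer with abscisic acid, a hormone that closes stomata and switches on protective genes, with solutes such as proline and raffinose, with enzymes that remove reactive oxygen, and with slower growth. Camelina is a hexaploid, so most Arabidopsis genes have up to 3 near-identical copies (homeologues) in it, and reads may be split between them.

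The values are CPM, reads of a gene scaled to the library size and then scaled again by the authors, and they are whole numbers after rounding. The smallest step is therefore 1 CPM, and a gene listed at 0 may have had reads. CPM is not divided by gene length, so that levels are compared between libraries and not between genes. Changes are log2 changes of salt over control, after adding 0.5 CPM, with their standard error (SE). A gene was called when its adjusted p (limma, Benjamini-Hochberg) was at most 0.05 and its log2 change was above 1 or below -1. Where replicate values of a group are equal after rounding, its spread is hidden and the p may be too small.

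The shoot libraries summed to 1077479 to 1112593 CPM with salt and 1081955 to 1117956 CPM in controls, and the read depth of the libraries is unknown. The tissue label fits its markers in all 6 libraries. The 3 genes for Rubisco small chain 1A, a subunit of the enzyme that fixes CO2, together stood at 9568, 9853 and 12079 CPM in salt-treated shoots and at 19779, 17954 and 19050 CPM in control shoots, against 12 to 196 CPM in the 6 root libraries. The 3 root markers of the fixed list, copies of the iron transporter IRT1, are not analysed here. Salt replicate 2 was the mildest of the salt-treated shoots. Over the up-regulated genes, its median log2 distance from the control mean was 1.48, against 1.79 in replicate 1 and 1.78 in replicate 3, and over the down-regulated genes it was -1.29, against -1.56 and -1.49. It was the lowest of the salt libraries in 3210 of the 4981 up-regulated genes. Without it the calls were 5367 rises and 4792 falls.

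Salt changed about as many genes upward as downward, but the rises reached further. In salt-treated shoots 4981 genes, or 10.4% of those tested, were up-regulated. The down-regulated genes numbered 4201, or 8.73%, so that 19.1% were called in all. The median log2 change was 1.67 among the up-regulated genes and -1.44 among the down-regulated. Beyond a log2 change of 3 in either direction there were 744 up-regulated and 140 down-regulated genes, and beyond 5 there were 94 and 1. A further 14391 genes had an adjusted p of at most 0.05 with a log2 change within 1 of 0, and are counted as not called. All salt libraries lay above all control libraries in 26.2% of the genes tested and below them in 26.7%. Among called genes, the groups overlapped in 23 of the up-regulated and 4 of the down-regulated. The salt libraries also varied more among themselves. Over the 27030 genes with a mean of 8 CPM or more, the median SD of the log2 values was 0.157 with salt and 0.117 in controls, and the SD was the larger with salt in 63.4% of them. In whole shoots, fewer cells of a type and less RNA per cell cannot be told apart.

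By abundance, the balance of rises and falls differed between classes. Of the 2830 genes with a mean under 2 CPM over the 6 libraries, 14.6% were up-regulated and 9.43% down-regulated. This class includes genes listed at 0 in 1 group, which pass the filter through the other group alone. Their calls are all but fixed, so that the shares of this class cannot be read as a balance. Among the 18236 genes of 2 to 8 CPM the shares were 9.84% and 9.28%. In the largest class, the 19966 genes of 8 to 32 CPM, the shares were 9.41% and 7.34%, and they were close to even, at 16.5% and 16.2%, among the 887 genes of the third class from the top, whose means reached 507.2 CPM. In the next class up, 139 genes with means of 519.2 to 1780.0 CPM, 12 were up-regulated (8.63%) and 28 down-regulated (20.1%), and the median log2 change was -0.56. These 139 genes together held 94471, 113013 and 87336 CPM in salt-treated shoots and 122300, 115053 and 124609 CPM in control shoots. Their summed level was lower in each salt library than in any control library, though only a little so in replicate 2.

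**Figure D1:**
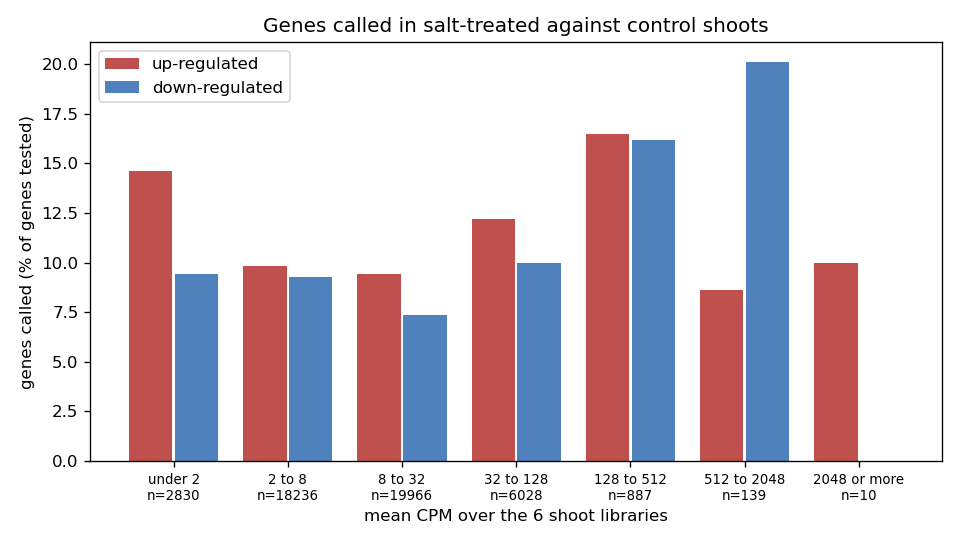
Share of genes called up-regulated (left bar of each pair) and down-regulated (right bar) in salt-treated against control shoots, in percent of the genes tested, for 7 classes of mean CPM over the 6 libraries, with the number of genes tested under each class. Up-regulated genes are the larger share under 2 CPM (14.6% against 9.43%) and down-regulated genes in the class of 139 genes, the last but one (8.63% up against 20.1% down).

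Only 1 of the 10 genes of the highest class was called. It is Csa07g053030, which the sources used here do not name, with 5503, 6834 and 5106 CPM in salt-treated and 2601, 2758 and 2476 CPM in control shoots (log2 change 1.14, SE 0.20, adjusted p = 0.0072). The most abundant gene of all, the Rubisco small chain 1A gene Csa16g026850, stood at 6015, 6143 and 7635 CPM in salt-treated and 12600, 11583 and 12546 CPM in control shoots. Every salt library lay below every control library, but the log2 change of -0.90 (adjusted p = 0.0419) kept it outside the call. Of the 10 most abundant up-regulated genes only 2 carry a name, and both are dehydrins, hydrophilic proteins that accumulate in drying cells and seeds. Dehydrin Csa17g026310 stood at 2637, 1655 and 2062 CPM in salt-treated shoots and at 229, 280 and 241 CPM in control shoots (log2 change 3.06, SE 0.20, adjusted p = 0.000485). The other, Csa03g024270, had 1601, 1628 and 1323 CPM with salt and 314, 328 and 275 CPM in controls.

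Some genes were seen in 1 of the groups only. With salt, 567 genes that were listed at 0 in all 3 control libraries reached 1 CPM or more in all 3 salt libraries, and 100 of them reached 5 CPM or more. The other way round there were 190 genes, listed at 0 in all salt libraries and at 1 CPM or more in all controls, and 14 of them were at 5 CPM or more in all controls. These genes passed the filter on low values through 1 group alone, which all but fixes their call, so that no separate count of their calls is given. The counts of named and listed genes below include some of them. The strongest with a name was the sulpho-transferase 12 gene Csa04g009350, whose Arabidopsis counterpart adds sulphate to brassinosteroids, at 91, 43 and 121 CPM in salt-treated shoots and 0 in every control. The unnamed Csa06g004650 stood at 103, 49 and 130 CPM with salt and also at 0 in every control. Both were most abundant in salt replicate 3 and least in replicate 2. On the falling side, the cytochrome P450 family 78 gene Csa17g001660 was listed at 0 in all salt libraries and at 8, 10 and 11 CPM in controls, and its relative Csa03g002050 had 0, 1 and 0 CPM with salt and 22, 19 and 18 CPM in controls. P450 enzymes of this family are known from Arabidopsis as promoters of organ growth. The unnamed Csa20g015440 stood at 0 in all salt libraries, against 14, 13 and 12 CPM in controls. The largest fall by log2 change was that of Csa07g046090, a putative protein that the study's lists file under gibberellin, with 1 CPM in each salt library and 61, 61 and 66 CPM in controls (log2 change -5.40, adjusted p = 4.41e-05).

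Functions come from 2 sources. The study's text names 247 gene IDs by topic, of which 190 were tested and 57 are not analysed here. Its lists of genes changed in shoots and not in roots give a description to 1352 IDs, of which 1076 were tested. A bin below means the listed genes of a functional class and not the whole class. The study chose both on these libraries, so that the counts below are no independent evidence of a direction. All 597 tested genes of its list of falls were called down-regulated, and 474 of the 479 tested genes of its list of rises were called up-regulated. The split of a bin into rises and falls thus mostly repeats these lists. The list of rises was held only in part, as far as the bin on transcription. For RNA binding, DNA, protein, signalling, cell, development and transport bins only listed falls were at hand, and a count of falls there says nothing of rises. Of the 190 named genes, 116 were up-regulated and 39 down-regulated (10.4% and 8.73% of all genes tested). Their median log2 change was 1.92 (0.00 over all genes tested).

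**Figure D2:**
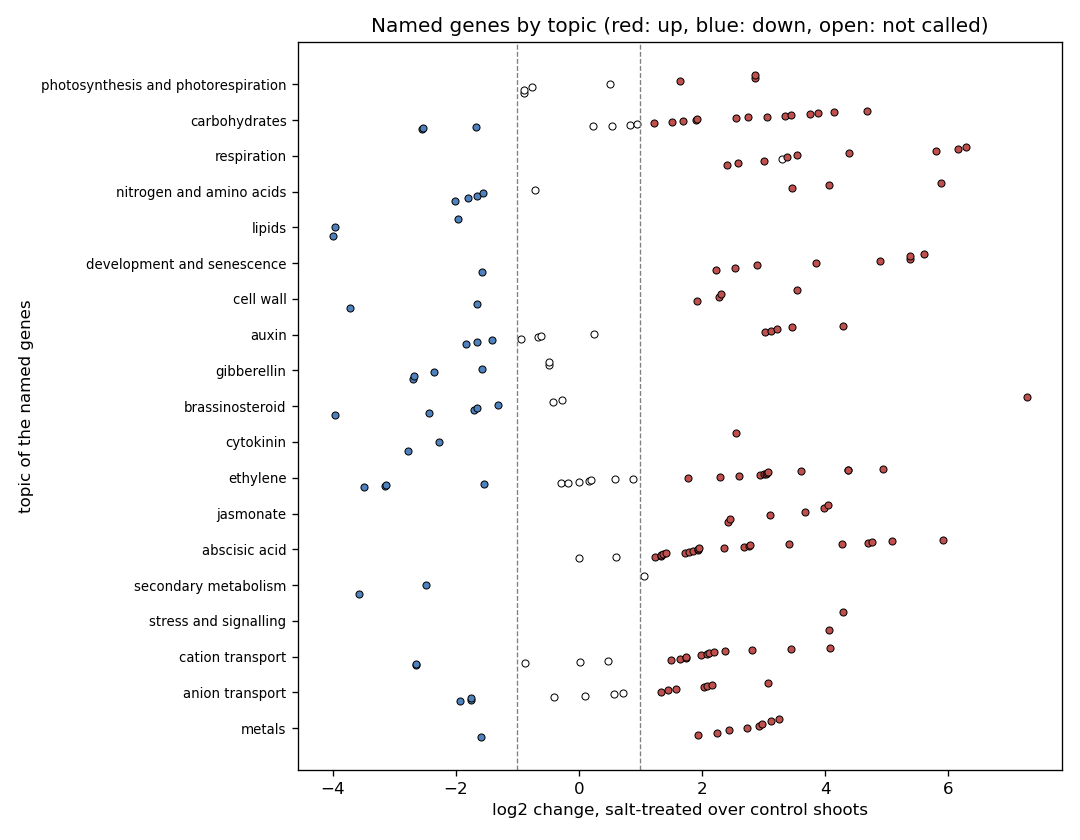
Log2 change of salt-treated over control shoots for the 190 tested genes that the study names, by topic, with 1 point per gene, filled where called and open where not, and with dashed lines at 1 and -1. All 6 jasmonate genes and 21 of 23 abscisic acid genes are called above 1, and all 3 tested lipases below -1 (10.4% and 8.73% of all genes tested).

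Most of the listed genes of the photosynthetic machinery were lower with salt, and the Rubisco small chain genes fell to unequal extents. Besides the 3 genes of small chain 1A, 6 other small chain genes are known here from the study's list of falls, and all 6 were down-regulated, with log2 changes of -2.72 to -1.96. The most abundant, Csa12g084210, stood at 609, 720 and 591 CPM in salt-treated and 3025, 2785 and 2950 CPM in control shoots (log2 change -2.19, SE 0.12, adjusted p = 0.000343). The deepest fall was in Csa10g044510, with 92, 140 and 110 CPM with salt and 848, 723 and 668 CPM in controls. The 3 genes of small chain 1A had log2 changes of -0.90 to -0.76 with no overlap of the groups and were not called. Summed over the 6 others, the level was 1537, 2124 and 1552 CPM in salt-treated shoots, against 8328, 7716 and 7864 CPM in control shoots. The 9 genes together made up 0.998%, 1.09% and 1.27% of the salt libraries and 2.54%, 2.37% and 2.41% of the control libraries. These copies are close in sequence, and how their shared reads were split was not tested.

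**Figure D3:**
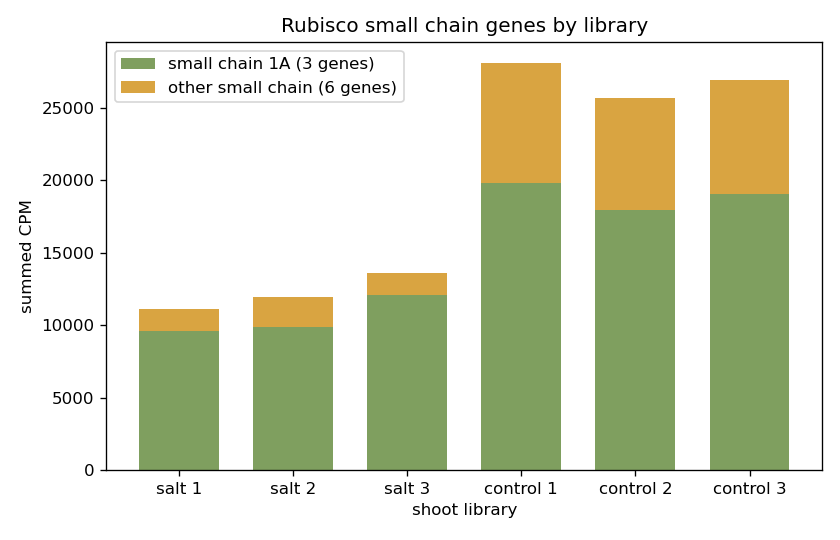
Summed CPM of the 9 Rubisco small chain genes in each shoot library, salt-treated on the left and control on the right, split into the 3 genes of small chain 1A and the 6 other genes. The 6 others sum to between 1537 and 2124 CPM in salt-treated libraries and between 7716 and 8328 CPM in control libraries.

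Most other listed genes of the chloroplast went the same way. Of the 9 tested listed genes whose annotation names PsbQ, a photosystem or chlorophyll, 7 were down-regulated and 2 up-regulated. Of the 8 whose annotation names the chloroplast, 7 were down-regulated and 1 up-regulated. Both counts run over all bins, also those for which only listed falls were at hand, so that rises may be missing from them. Carbonic anhydrase 1 (Csa00532s290), which interconverts CO2 and bicarbonate, had 365, 538 and 312 CPM in salt-treated and 1563, 1473 and 1571 CPM in control shoots (log2 change -1.96, SE 0.22, adjusted p = 0.00195). All 10 tested genes of the light reaction bin and all 11 of the Calvin cycle bin were on the list of falls and none on that of rises. Photosystem I subunit D-1 (Csa08g050560) stood at 30, 36 and 34 CPM with salt and 125, 115 and 116 CPM in controls, and a PsbQ-like 1 gene (Csa19g001450) at 40, 85 and 42 CPM with salt and 225, 256 and 237 CPM in controls. Salt replicate 2 was the highest of the salt libraries for both carbonic anhydrase and PsbQ-like 1, but below all controls. The chlorophyll-binding protein gene Csa06g008820, one of the shoot markers, went against this: it was at 78, 117 and 67 CPM in salt-treated and 52, 61 and 68 CPM in control shoots, overlapping and not called (adjusted p = 0.132).

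The list of falls also held genes by which the chloroplast handles its RNA and makes its proteins. For RNA binding and protein synthesis no listed rises were at hand. The chloroplast RNA-binding protein 29 gene Csa09g061830 had 140, 189 and 151 CPM in salt-treated and 661, 755 and 776 CPM in control shoots (log2 change -2.20), and its copy Csa04g039510 had 95, 133 and 91 CPM with salt and 420, 493 and 489 CPM in controls. The list of falls held 22 ribosomal protein genes among those tested, 19 of them described as chloroplast or plastid proteins, with log2 changes of -2.11 to -1.69. The most abundant, a ribosomal L29 gene (Csa11g102440), had 99, 142 and 150 CPM with salt and 456, 618 and 519 CPM in controls. The spread of these 22 changes is narrow beside that of all genes tested, whose 5th and 95th percentiles were -1.35 and 1.76, but the list they come from was itself chosen on the size of the fall.

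The named glycolate oxidase genes and the listed catalase and superoxide dismutase genes rose, while other enzymes near them moved both ways. Glycolate oxidase turns the glycolate made when Rubisco takes up oxygen into glyoxylate and hydrogen peroxide. The 3 genes of it that the study's text names were up-regulated, with log2 changes of 1.65 to 2.87. They stood at 14 to 53 CPM with salt and only 3 to 6 CPM in control shoots, below their 16 to 32 CPM in control roots. Other genes of this enzyme were not examined. Catalase breaks the peroxide down in peroxisomes, and 3 genes of catalase 2 were up-regulated. The most changed, Csa10g007080, had 985, 523 and 1053 CPM in salt-treated shoots and 52, 72 and 89 CPM in control shoots (log2 change 3.55, SE 0.34, adjusted p = 0.00135). Catalase genes Csa12g008510 and Csa11g006790 had log2 changes of 3.02 and 1.98. Superoxide dismutase, which makes peroxide from superoxide, rose as well, with Fe superoxide dismutase 1 (Csa12g028130) at 18, 10 and 15 CPM with salt and 1, 2 and 1 CPM in controls. All 5 tested genes of the bin of dismutases and catalases, all 5 of the ascorbate and glutathione bin and all 12 of the glutathione S-transferase bin were up-regulated. These bins held only listed rises, and genes that the study did not call are not in them. In the bin of peroxidases, however, 2 of 5 tested genes were up-regulated and 3 down-regulated, and the 1 listed gene of the H protein of glycine cleavage, a later step of photorespiration, fell (log2 change -1.89). Glutathione S-transferase phi 8 (Csa05g001450), of a family that joins glutathione to reactive compounds, stood at 650, 350 and 503 CPM in salt-treated and 98, 97 and 83 CPM in control shoots.

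**Figure D4:**
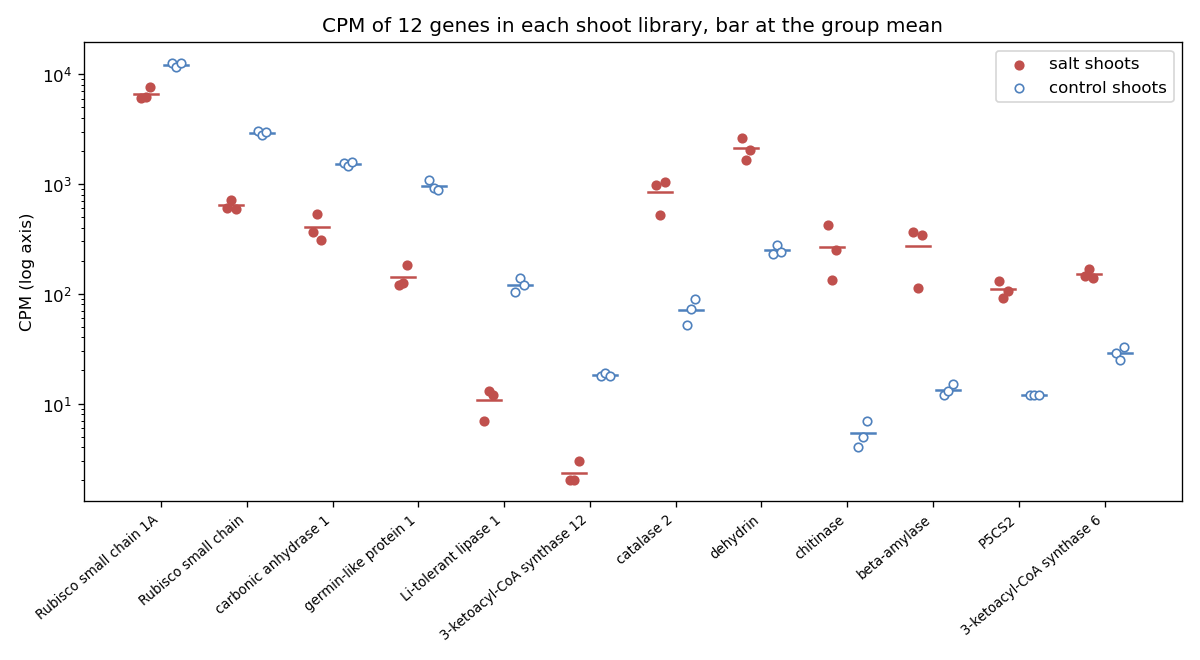
CPM on a log axis of 12 genes in each shoot library, salt-treated (left of each pair, filled) and control (right, open), with a bar at the group mean. In all 12 the groups do not overlap, and the rises of chitinase, catalase 2, dehydrin, beta-amylase and P5CS2 stand against the falls of the Rubisco small chain, carbonic anhydrase 1, germin-like protein 1 and a Li-tolerant lipase.

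Among the carbohydrate genes of the study's text, 14 of 21 tested were up-regulated and 3 down-regulated (10.4% and 8.73% of all genes tested). The largest levels were those of beta-amylase, which releases maltose from starch. Its gene Csa01g030170 had 365, 114 and 345 CPM with salt and 12, 13 and 15 CPM in controls (log2 change 4.14, SE 0.48, adjusted p = 0.00227), and the other 2 copies had log2 changes of 3.35 and 3.06. Replicate 2 was the lowest of the salt libraries in all 3 copies. Genes named alpha-amylase, after a family of enzymes that cut starch chains, moved both ways. Csa15g030630, Csa19g028300 and Csa01g023510 fell, with log2 changes of -2.56 to -1.67, and the study's list files these copies under starch branching, a step of starch synthesis. Csa10g017970 and Csa12g029250 rose, by 2.56 and 1.91 on the log2 scale. The 3 genes of sucrose synthase 3, which splits sucrose, rose with little spread between libraries. One of them, Csa13g054950, had 54, 49 and 52 CPM in salt-treated and 4, 5 and 4 CPM in control shoots (log2 change 3.44).

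The raffinose sugars, which protect membranes and proteins in drying tissue, are made by galactinol synthase and raffinose synthase. Galactinol synthase 2 (Csa05g063400) stood at 28, 14 and 15 CPM with salt and 0, 1 and 0 CPM in controls, and all 3 raffinose synthase genes were up-regulated, with log2 changes of 1.7 to 3.88. Galactinol synthase 4 (Csa16g052330) was at 1 CPM in each salt library and 0, 1 and 1 CPM in controls, and was not called. All 3 tested genes of the myo-inositol bin, which code for myo-inositol-1-phosphate synthase, were up-regulated, with a median log2 change of 2.1. Of the 3 copies of trehalose-phosphatase/synthase 9, Csa17g030990 was up-regulated (log2 change 1.22), and the other 2 had log2 changes of 0.83 and 0.94 and were not called.

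In respiration, 9 of 10 named genes were up-regulated (10.4% of all genes tested). Alternative oxidase passes electrons from the mitochondrial chain to oxygen without making ATP. All 3 genes of alternative oxidase 1D were at 0 or 1 CPM in every control library and rose to 52, 17 and 71 CPM with salt in Csa17g051700, to 55, 23 and 105 CPM in Csa14g042300 and to 46, 14 and 89 CPM in Csa03g036700. Alternative oxidase 1A was present in controls, with Csa01g025600 at 147, 52 and 177 CPM in salt-treated and 9, 10 and 8 CPM in control shoots (log2 change 3.55). In each of these genes replicate 2 had less than the other salt libraries and more than any control. Of the NAD(P)H dehydrogenases that feed this pathway, the bin held only 4 listed rises, and all 4 were again up-regulated. Citrate synthase 3, which starts the tricarboxylic acid cycle or, in peroxisomes, takes up acetyl units from fatty acids, was up-regulated in 2 copies. The other copy, Csa04g059380, had 27, 1 and 14 CPM with salt and 0, 0 and 2 CPM in controls, overlapping (adjusted p = 0.0891), and was called once salt replicate 2 was left out.

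Among nitrogen genes, the listed genes of proline synthesis described here rose, while proline itself was not measured. Delta 1-pyrroline-5-carboxylate synthase 2 (P5CS2) makes the committed step to proline, a solute that plants gather under salt, and its 3 listed genes were up-regulated, with log2 changes of 3.59 in Csa06g030270, 3.12 in Csa04g041940 and 2.54 in Csa09g067680. Csa04g041940 had 132, 91 and 106 CPM in salt-treated and 12 CPM in each of the control shoot libraries (SE 0.14, adjusted p = 0.000186). Pyrroline-5-carboxylate reductase (Csa13g017630), the next step, stood at 90, 58 and 84 CPM with salt and 14, 15 and 12 CPM in controls. All 10 tested genes of the amino acid degradation bin were up-regulated. Asparagine synthase 1 (Csa06g020990), which stores nitrogen as asparagine, had 70, 10 and 106 CPM with salt and 0, 1 and 0 CPM in controls, the widest range among salt libraries of the nitrogen genes. Glutamine synthetase moved by gene: glutamine synthetase 1 (Csa20g024450) and glutamine synthase R1 (Csa11g051370) fell, with log2 changes of -1.81 and -1.66, while 2 genes listed as glutamate-ammonia ligases and described as fluG proteins (Csa04g039120 and Csa09g061450) rose, by 3.48 and 3.5. Nitrate reductase 2 (Csa03g040490) had 61, 43 and 73 CPM with salt and 97, 89 and 99 CPM in controls, lower without overlap but not called (log2 change -0.71).

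Listed genes of surface lipids were split between rises and falls. Of the 18 tested genes in the bin of GDSL-motif lipases, 17 were down-regulated and 1 up-regulated. Many enzymes of this family act on cutin and surface lipids. The Li-tolerant lipase 1 gene Csa01g005030 had 7, 13 and 12 CPM in salt-treated and 103, 139 and 119 CPM in control shoots (log2 change -3.47, SE 0.26, adjusted p = 0.000702), and its copies Csa15g005200 and Csa19g006470 had log2 changes of -2.91 and -3.61. Of the lipases that the study's text names, the 3 that were tested also fell. The most changed, Csa20g039550, had 2, 4 and 2 CPM with salt and 55, 49 and 41 CPM in controls. The wax bin held only listed rises, and all 6 tested genes were again up-regulated. Wax genes that the study did not call are not in it. 3-Ketoacyl-CoA synthase 6, which lengthens fatty acids for leaf wax, rose in 3 copies, and Csa05g084930 had 146, 169 and 138 CPM with salt and 29, 25 and 33 CPM in controls (log2 change 2.36). A relative, 3-ketoacyl-CoA synthase 12, fell, with Csa16g016450 at 2, 2 and 3 CPM in salt-treated and 18, 19 and 18 CPM in control shoots (log2 change -2.75).

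Lipid transfer proteins, small secreted proteins of the cell surface, were divided as well. In the bin of protease inhibitor, seed storage and lipid transfer proteins 5 of 7 tested genes were up-regulated, and Csa09g097130 had 244, 601 and 175 CPM with salt and 20, 25 and 43 CPM in controls. Here salt replicate 2 was the highest library and not the lowest. All 4 genes of the bin of lipid transfer proteins were down-regulated, with lipid transfer protein 1 (Csa06g041380) at 1 CPM in each salt library and 16, 15 and 11 CPM in controls. Acyl-CoA oxidase 1, the first step of fatty acid breakdown in peroxisomes, rose in 3 copies, with log2 changes of 1.93 to 2.11.

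Cell wall genes moved both ways. In the bin of cell wall modification, 10 of 15 tested genes were down-regulated and 5 up-regulated. Of the 6 tested wall genes that the study's text names, 2 were down-regulated and 4 up-regulated (8.73% and 10.4% of all genes tested). Expansins loosen walls so that cells can enlarge. Expansin A8 (Csa06g045040) had 16, 29 and 19 CPM in salt-treated and 74, 67 and 80 CPM in control shoots, and expansin B3 (Csa10g014410) had 2, 3 and 2 CPM with salt and 22, 20 and 23 CPM in controls. Expansin A10 rose in 3 copies, with Csa17g034120 at 217, 99 and 240 CPM with salt and 34, 39 and 33 CPM in controls (log2 change 2.28). A pectin lyase gene (Csa18g036730), of a family that cuts pectin, had 7, 15 and 7 CPM with salt and 140, 117 and 120 CPM in controls (log2 change -3.72). Arabinogalactan protein 2 (Csa07g052560), a wall glycoprotein, had 81, 30 and 146 CPM with salt and 7, 5 and 5 CPM in controls. In each call of expansin A10 and arabinogalactan protein 2, replicate 2 was the lowest of the salt libraries. Leaving out any 1 control library or salt replicate 1 brought the calls among the named wall genes from 4 rises to 2.

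The list of falls held all 15 tested genes of the DNA and chromatin bin, 8 histone genes and the 14 of unspecified development. Histone H2A 13 (Csa15g031010), a packing protein of newly made DNA, stood at 3, 4 and 4 CPM with salt and 18, 20 and 18 CPM in controls, an MCM family gene of DNA replication (Csa11g065720) at 3 CPM in each salt library and 14, 15 and 16 CPM in controls, and cyclin D3 (Csa12g009530), which drives cells into division, at 2, 3 and 2 CPM with salt and 10 CPM in each control. Protodermal factor 1 (Csa05g008720), a gene of young epidermis, had 16, 24 and 24 CPM in salt-treated and 100, 102 and 115 CPM in control shoots (log2 change -2.30). In all of these the groups lay well apart.

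Growth hormone genes were divided. In the gibberellin bin 8 of 17 tested genes were up-regulated and 9 down-regulated. RGA-like 1, a repressor of gibberellin responses, fell in all 3 copies, with Csa07g030410 at 5, 6 and 6 CPM with salt and 44, 36 and 38 CPM in controls (log2 change -2.69). Of the 3 genes of gibberellin 3-oxidase 1, which makes active gibberellin, all were at 0 to 2 CPM in every shoot library, and the 1 that was called, Csa14g018700, was at 0 in all salt libraries and at 1 CPM in all controls, a single step of the rounded scale. Of 8 tested brassinosteroid genes, 5 were down-regulated and 1 up-regulated (8.73% and 10.4% of all genes tested). The rise was that of sulpho-transferase 12 (Csa04g009350, log2 change 7.29), at 0 in every control. The falls include a pair of synthesis P450s (Csa15g017890 and Csa01g016080, log2 changes -1.66 and -1.71) and BRS1, a protease linked to brassinosteroid signalling. BRS1 gene Csa12g016550 had 1, 1 and 0 CPM with salt and 15, 16 and 16 CPM in controls. Of 3 copies of sterol methyltransferase 3, 1 fell and 2 were not called. Cytokinin oxidase/dehydrogenase 6, which degrades cytokinin, fell in both tested copies, to 2 CPM in each salt library, against 13, 11 and 11 CPM in controls, in Csa16g001090 and to 0, 2 and 1 CPM with salt, against 7, 9 and 8 CPM in controls, in Csa07g001160. The second call was lost without any 1 control library. A cis-zeatin O-glucosyltransferase gene (Csa14g027610), of an enzyme that stores cytokinin as a glucoside, rose to 35, 10 and 38 CPM with salt, against 4, 3 and 4 CPM in controls, a call that was lost without any 1 control library or without salt replicate 1 or 3. Of 12 auxin genes 5 rose and 3 fell (10.4% and 8.73% of all genes tested). The 3 IAA biosynthesis genes rose with log2 changes of 3.03 to 3.22. The dormancy/auxin associated genes, linked to arrested growth, rose without overlap, Csa05g021450 to 167, 152 and 147 CPM with salt, against 13, 14 and 14 CPM in controls (log2 change 3.46).

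Genes of abscisic acid that the study's text names rose in most cases, with 21 of 23 tested genes up-regulated (10.4% of all genes tested). NCED3, the rate-limiting step of its synthesis under drought, rose in all 3 copies, with Csa15g018820 at 72, 21 and 43 CPM in salt-treated and 1 CPM in each control library (log2 change 4.76, SE 0.45, adjusted p = 0.00122). NCED2 (Csa10g026860) was at 1, 0 and 1 CPM with salt and 1, 1 and 0 CPM in controls and was not called. ABA deficient 1, an earlier enzyme, rose less and more evenly. Its 3 copies had log2 changes of 1.34 to 1.94, and Csa02g075650 had 329, 342 and 301 CPM with salt and 116, 115 and 155 CPM in controls. HAI1, a protein phosphatase that damps the signal, was at 0 or 1 CPM in all controls and at 6 to 47 CPM in the salt libraries over its 3 copies. Of the transcription factors that carry the response, ABF2, ABF3 and ABF4 rose in all tested copies, with the largest change in ABF3 (2.78 in Csa11g008990). ABF1 (Csa17g085550) had 61, 79 and 50 CPM with salt and 37, 38 and 48 CPM in controls, above without overlap but not called (adjusted p = 0.053).

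Of jasmonate synthesis, all 6 named genes rose (10.4% of all genes tested were up-regulated). Of these, the allene oxide cyclase 2 gene Csa09g008870 was listed at 0 in all controls, which all but fixes its call. Lipoxygenases 3 and 4 and allene oxide cyclase 2 make the precursors of jasmonate, and lipoxygenase 4 (Csa09g076110) had 51, 19 and 70 CPM with salt and 2 CPM in each control (log2 change 4.05). Ethylene genes were mixed, with 12 of 23 up-regulated and 4 down-regulated (10.4% and 8.73% of all genes tested). ACC synthase, the limiting enzyme of ethylene, was listed at 0 in all control libraries for 3 genes of ACC synthase 2 and 2 of ACC synthase 7. In the salt libraries these 5 genes stood at 2 to 27 CPM. They passed the filter through the salt group alone, which all but fixes their calls. ACC oxidase 2 (Csa09g097000), the last enzyme, had 352, 263 and 334 CPM with salt and 100, 100 and 75 CPM in controls, while ACC oxidase 1 (Csa00441s160) fell to 5, 7 and 5 CPM with salt, against 16, 17 and 19 CPM in controls. Among the response factors, ERF11 and ERF5 rose in all tested copies and ERF106 fell in all 3, with Csa13g009640 at 1, 2 and 2 CPM with salt and 22, 24 and 24 CPM in controls. ERF105 and ESE3 were not called in any of 5 copies.

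Senescence genes rose. RD26, a NAC factor that ties abscisic acid to leaf ageing in Arabidopsis, had 133, 36 and 85 CPM in salt-treated shoots and 1, 2 and 1 CPM in control shoots in Csa10g015440 (log2 change 5.39, SE 0.53, adjusted p = 0.00138), and its other copies had log2 changes of 4.90 and 5.39. SAG29, a sugar transporter of ageing leaves, was listed at 0 in all control libraries and stood at 33, 10 and 41 CPM with salt in Csa20g018520 and at 8, 3 and 12 CPM in Csa13g015780. Replicate 2 was the lowest salt library in all of these. The DYL1 genes, linked to dormancy, rose in 3 copies with log2 changes of 2.23 to 2.90.

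Listed stress and defence genes went both ways by family. In the abiotic stress bin 45 of 53 tested genes were on the list of rises and were again up-regulated. Among them were 7 small heat shock genes with log2 changes of 2.11 to 3.89. The 8 falls of that bin included germin-like protein 1, a secreted protein of the germin family. Csa09g077160 had 120, 126 and 182 CPM in salt-treated and 1088, 911 and 877 CPM in control shoots (log2 change -2.76, SE 0.19, adjusted p = 0.000592), and Csa07g039700 had 42, 50 and 71 CPM with salt and 575, 494 and 449 CPM in controls. All 7 tested germin-like genes of the lists were down-regulated. In the biotic stress bin 27 of 32 tested genes were up-regulated. Chitinase, which cuts fungal walls, had the highest rise of that bin by level, with Csa05g006820 at 423, 134 and 250 CPM with salt and 4, 5 and 7 CPM in controls (log2 change 5.41). A plant defensin, 1.2C (Csa07g047380), stood at 102, 28 and 109 CPM with salt and 12, 14 and 13 CPM in controls, a call that was lost without any 1 control library or without salt replicate 1 or 3. By contrast, plant defensin 1.3 (Csa07g047370) had 337, 199 and 222 CPM with salt and 954, 853 and 889 CPM in controls, and thionin 2.1 (Csa09g075730), another antimicrobial peptide, had 1, 1 and 0 CPM with salt and 8, 18 and 25 CPM in controls.

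Among the listed genes of enzymes that modify small molecules, most rose. The splits of these bins mostly repeat the study's lists, while of all genes tested 10.4% were up-regulated and 8.73% down-regulated. In the cytochrome P450 bin, 40 of 48 tested genes were up-regulated and 7 down-regulated. Csa15g029230 had 289, 96 and 282 CPM in salt-treated shoots and 2 CPM in each control library (log2 change 6.32), and Csa19g027880 had 83, 101 and 104 CPM with salt and 0, 1 and 1 CPM in controls (log2 change 6.53). The first was lowest in salt replicate 2, the second was not. Of the 22 UDP-glucosyl transferases, which attach sugars to hormones and phenols, 19 were up-regulated and 2 down-regulated. All 10 tested berberine-type oxidases rose, with log2 changes of 2.08 to 5.26. In the flavonoid bin 11 of 12 and in the phenylpropanoid bin 10 of 11 were up-regulated.

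Among ion transporters, exchangers for calcium and organic cations rose, and those best known for sodium did not move as a set. All 6 calcium:cation antiporter genes were up-regulated, and Csa06g026060 had 154, 79 and 112 CPM with salt and 4, 6 and 9 CPM in controls (log2 change 4.09, SE 0.37, adjusted p = 0.00108). SOS1 (Csa04g006390), which exports sodium from cells, had 6, 8 and 5 CPM in salt-treated and 4, 4 and 5 CPM in control shoots, overlapping and not called (adjusted p = 0.0883). The sodium transporter HKT (Csa08g040240) and the exchanger NHX4 (Csa15g007930) were at 0 in all salt libraries and at 3, 3 and 2 CPM in controls, and were called down-regulated at these low levels. NHX2 (Csa15g006210), which loads sodium or potassium into vacuoles, had 26, 20 and 27 CPM with salt and 6, 9 and 6 CPM in controls (log2 change 1.74). Of the potassium channels, KAT1 (Csa11g065760) had 6, 6 and 7 CPM with salt and 12 CPM in each control (log2 change -0.87, not called), and KT1 (Csa07g013260) had 4 CPM in each salt library and 4, 3 and 5 CPM in controls.

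Anion and metal carriers moved by copy. Chloride channel B fell in Csa06g007100, to 5, 5 and 8 CPM in salt-treated shoots, against 22, 20 and 21 CPM in control shoots, while its copies Csa04g014930 and Csa09g012970 had log2 changes of -0.40 and 0.10 and were not called. The 5 tested phosphate transporter genes of the study's text were up-regulated (10.4% of all genes tested), with log2 changes of 1.58 to 3.08. The 6 listed purple acid phosphatase genes, which release phosphate, were up-regulated as well. Both genes of the phosphate transport bin, for which only falls were listed, were down-regulated, with log2 changes of -1.94 and -1.92. The nitrate transporter NRT1 (Csa17g016300) fell to 3, 2 and 2 CPM with salt, against 12, 9 and 10 CPM in controls. Ferritin 1, which stores iron in plastids, rose in 3 copies. Csa08g063260 had 340, 120 and 241 CPM with salt and 29, 36 and 57 CPM in controls (log2 change 2.44), with replicate 2 again the lowest salt library. The heavy metal pump HMA2 (Csa11g013320) had 0, 1 and 1 CPM with salt and 3, 3 and 2 CPM in controls, a called fall of 1 to 3 CPM that was lost without salt replicate 2 or 3 or without any 1 control library.

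Genes under the same name mostly moved together, which is in part set by how the names were formed. Alpha-amylase, pectin lyase and lipase genes were grouped by the direction or organ that the study gave them. The falling and the rising alpha-amylase genes thus count as separate names. A name can also hold more than 1 set of homeologues, as may be so for the 6 calcium:cation antiporters. Of 57 names with 2 or more tested genes, all copies rose in 36 and all fell in 8, some copies were called in 7, none in 5, and copies went in opposite directions in 1. The median range of log2 change within a name was 0.68, and 19 names had a range above 1. With the names formed in this way, the 1 with opposite calls is the boron exporter BOR5. Csa16g038700 had 3, 3 and 5 CPM in salt-treated and 1 CPM in each control library, and Csa09g079390 had 1, 0 and 1 CPM with salt and 3 CPM in each control, so that both calls rest on steps of 2 to 4 CPM, and the fall was lost without any 1 control library. Of names well above that level, raffinose synthase had the widest range, from 1.7 in Csa12g079610 to 3.88 in Csa10g047220.

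A part of this response differed from that of roots. Across all 12 libraries, the salt effect differed between shoots and roots past the same thresholds in 12.3% of 49928 genes (6.25% higher in shoots and 6.09% higher in roots), and among the 9182 genes called in shoots it did so in 3399, or 37%. Of these, 1900 were up-regulated in shoots with a higher change there than in roots, and 1347 were down-regulated with a lower change there, while 79 and 73 changed further in roots in the direction seen in shoots. A gene with a large change in shoots is more likely to differ from roots, so that the first counts are in part set by the call. Among the 190 named genes, the effect was higher in shoots for 68 and in roots for 42. The differences are given in the closing section with the root values.

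**Figure D5:**
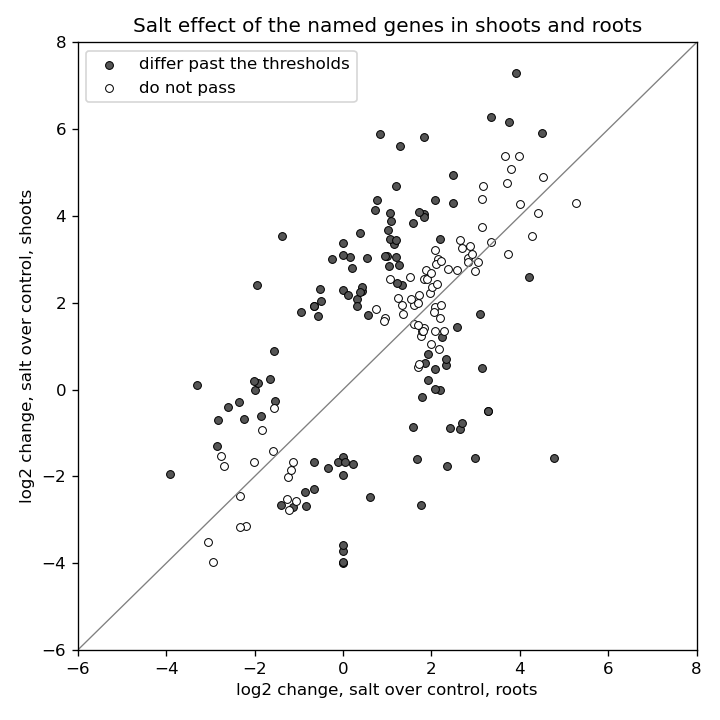
Log2 change of salt over control in shoots (vertical axis) against that in roots (horizontal axis) for the 190 tested genes that the study names, filled where the 2 changes differ past the thresholds and open where not, with a line of equal change. The 68 filled points above the line have the higher change in shoots and the 42 below it in roots.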

How the data were processed

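RNA was sequenced from 12 libraries, 3 biological replicates each of salt-treated and control shoots and roots, and the 6 shoot libraries are the subject here. Per the study's methods and labels, Trimmomatic was used by the authors for trimming and STAR for mapping to the DH55 reference and annotated transcripts, after which gene counts were divided by library size (CPM) and scaled with DESeq. What was deposited is this CPM rounded to whole numbers, a score rather than counts, so that no count model was used and the depth is not known. No version of these tools is given in the sources used here.

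Values were analysed as log2(CPM + 0.5) for genes that reached 1 CPM in 3 or more shoot libraries, with limma 3.58.1 in R 4.3.3 (moderated test with a trend, Benjamini-Hochberg adjustment), and called at an adjusted p of at most 0.05 and a log2 change beyond 1. Summaries were made in Python 3.11.15 with pandas 2.3.3 and figures with matplotlib 3.10.9. The difference between shoots and roots was tested in 1 fit over 12 libraries. The scripts were tested on simulated data. Alternatives were other pseudocounts, filters and scalings, a fit on 12 libraries, array weights, a replicate block and leaving out each library.

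Named genes are, by rule, those the study names in its text, the 10 largest rises and falls without overlap, the 10 most abundant called genes in each direction, the 15 most abundant genes, the most abundant and most changed members of each functional bin described, and the 5 largest differences between tissues in each direction. At most 2 unnamed genes a direction were given. Members and lists were chosen with earlier results of these data known. The reference table at hand pairs no gene ID of the files with a symbol, so that names are the study's. One named gene is not reported here.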

Additional observations from a re-analysis of the deposited data

Results flagged for a closer look

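The salt effect differed between shoots and roots past the thresholds (limma, 12 libraries) in 3399 of the 9182 genes called in shoots, and the genes of the study's text with the largest differences are given here with their root values. Larger ones stand among the other genes described above, as in the cytochrome P450 gene Csa19g027880 (difference 6.53), which was listed at 0 in all 6 root libraries.

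In 5 genes the change was higher in shoots. Asparagine synthase 1 (Csa06g020990) stood at 70, 10 and 106 CPM in salt-treated and 0, 1 and 0 CPM in control shoots, against 11, 6 and 12 CPM in salt-treated and 5, 5 and 5 CPM in control roots, a difference of 5.06 between the log2 changes (SE 1.02, adjusted p = 0.00486). Arabinogalactan protein 2 (Csa07g052560) rose in shoots and stood lower in salt-treated roots, at 12, 8 and 12 CPM against 26, 23 and 36 CPM in control roots (difference 4.92). Allene oxide cyclase 2 (Csa06g005340), an enzyme of jasmonate synthesis, did likewise, with 46, 26 and 49 CPM in salt-treated and 6, 9 and 6 CPM in control shoots, and 5, 6 and 11 CPM in salt-treated and 26, 25 and 34 CPM in control roots (difference 4.36). SAG29 (Csa20g018520) was at 2, 1 and 0 CPM in salt-treated roots and alternative oxidase 1D (Csa17g051700) at 2, 1 and 1 CPM, with 0 in every control root library for both, and the differences were 4.31 and 3.98.

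In the other 5 the change was higher in roots, and 4 of them were at 3 CPM or less in every shoot library. The nodulin MtN3 family gene Csa12g029240, of a sugar transporter family, stood at 27, 35 and 23 CPM in salt-treated and 1, 1 and 0 CPM in control roots, and at 0 in every salt-treated and 1 CPM in every control shoot library (difference -6.36). Gibberellin 3-oxidase 1 (Csa14g018700) had 15, 10 and 17 CPM in salt-treated and 1, 1 and 2 CPM in control roots (difference -4.58). The sodium transporter HKT (Csa08g040240) had 104, 115 and 72 CPM in salt-treated and 22, 35 and 27 CPM in control roots (difference -4.42), and BOR5 (Csa09g079390) had 9, 12 and 10 CPM in salt-treated and 1, 2 and 2 CPM in control roots (difference -4.10). Lipase Csa20g039550, which fell in shoots, was listed at 0 in all 6 root libraries, so that its difference of -4.0 is that of the shoots alone.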

How the results depend on the processing

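The counts of called genes over all genes, over all named genes and between tissues moved by less than 1.5 times under the alternatives, and no gene called in 1 direction was called in the other. The 4981 up-regulated genes became 4625 with a pseudocount of 1, 5157 with 0.1, 3800 with a filter at 5 CPM, 4941 with median-of-ratios scaling, 4855 with quantile normalization, 5394 in the fit on 12 libraries and 5477 with array weights. The 4201 down-regulated became 3807, 4494, 3398, 4053, 4344, 4431 and 4755 under the same alternatives. Leaving out 1 library at a time gave 3968 to 5367 up-regulated and 3661 to 4792 down-regulated genes, with the lowest counts without salt replicate 1 and the highest without salt replicate 2. Among the named genes it gave 107 to 118 up-regulated and 36 to 39 down-regulated, and 2857 to 3899 genes whose effect differed between tissues. With the replicate number as a block, 4542 genes were up-regulated and 3878 down-regulated, 113 and 37 of the named genes were called, and 3178 genes differed between tissues. By topic, leaving out 1 library took the wall genes from 4 rises to 2, the cytokinin genes from 2 falls to 1 and from 1 rise to 0, and the metal genes from 1 fall to 0, and brought 1 fall among the photosynthesis genes and 1 rise among those of secondary metabolism, where there was none. Of 114 genes named in the text, 107 kept their call, or stayed uncalled, in every alternative that tested them, and none reversed. The block ended the calls of plant defensin 1.2C (Csa07g047380), BOR5 (Csa09g079390) and HMA2 (Csa11g013320), and changed no other call of a gene named here. Citrate synthase 3 (Csa04g059380) was called in 4 alternatives, and Rubisco small chain 1A (Csa16g026850) without salt replicate 3, at a log2 change of -1.01. The cause was not tested. Deviations of same-numbered salt and control libraries correlated at -0.224, 0.182 and 0.069, and those of differently numbered libraries at -0.29 to 0.343. With 3 libraries a group, these values cannot show whether the numbers pair the samples. Below about 5 CPM the rounding to whole numbers limits what can be seen, since 1 CPM is then a large part of the value, and the number of replicates (3 a group) limits the rest.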
